A study of Mus musculus with 8 samples.

Results

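The 10 genes described here encode the cytoskeleton and growth cone proteins of young neurons, and they were chosen by symbol from the 55421 gene rows of the expression table. They are the neuronal intermediate filament subunits Nefl, Nefm, Nefh, Ina and Prph, the microtubule genes Tubb3, Stmn2, Mapt and Dcx, and the growth cone gene Gap43. All 10 symbols were found, each in a single row. The values came from poly-A RNA sequencing of mouse tissue taken at embryonic day 9.5 from the vagal region, which lies beside somites 1 to 7. Of the 8 libraries, 4 were from Rdh10 trex/trex mutants (written trex) and 4 from wt embryos (written wt), with no treatment in either group. Rdh10 encodes the enzyme that oxidizes retinol in the first step of retinoic acid synthesis. The labels give neither strain, sex nor litter, and do not say whether a library is a single embryo or a pool, so p-values measure only the spread between these samples.

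Neurons build their axons on microtubules and intermediate filaments. In the developing nervous system Tubb3 marks cells that have left the cell cycle as neurons, the light and medium neurofilament subunits and alpha-internexin appear early in axons, and the heavy subunit is a late, mature component. Doublecortin, stathmin-2 and tau bind microtubules or tubulin, and GAP-43 is a membrane protein of growing axon tips. The vagal level holds the hindbrain and anterior spinal cord with their motor neurons, cranial sensory ganglia, and the neural crest cells that go on to the gut.

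Levels are given in TPM, a unit that scales reads by gene length and library, so that levels of different genes can be set side by side. Reads recovered from the deposited TPM put the depth at 20928981 to 23648646 reads per library. Differences are given as the log2(TPM + 1) of trex minus wt with the standard error from limma, fitted to 15717 genes with a mean of at least 1 TPM, and a gene was called at a Benjamini-Hochberg adjusted p below 0.05. Because of the added 1, this scale understates the change of low genes. The fit called 592 genes lower and 777 higher in trex, a split that became 739 and 633 after quantile normalization, 692 and 692 after median-of-ratios rescaling, 684 and 640 when TPM was recomputed after removal of sex chromosome, globin and mitochondrial genes, and 820 and 643 with voom on recovered reads. Rdh10 itself was listed at 106, 66.2, 62.7 and 69.0 TPM in trex replicates 1 to 4 and at 36.3 to 41.0 TPM in wt, so its level does not by itself show the allele.

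Several features of the libraries touch the comparisons that follow. Markers of liver and yolk sac endoderm split both groups: their mean log2(TPM + 1) was 1.19 and 2.05 in trex replicates 1 and 2 and 3.80 and 5.05 in replicates 3 and 4, against 0.84 and 0.72 in wt replicates 1 and 2 and 3.36 and 3.27 in replicates 3 and 4. The summed TPM of 4 Y-linked genes was 162 and 158 in wt replicates 2 and 3 and at most 0.0662 in the other 6 libraries, among them all 4 trex libraries. Genotype and sex are therefore partly confounded.

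Of the 10 genes, 6 were lower in trex, namely Nefl, Nefm, Ina, Tubb3, Stmn2 and Dcx, by 3.34-fold to 5.57-fold in mean TPM. All 6 calls were lost with a term for sex (0 members called by limma, adjusted p of 0.0771 to 0.153). In that fit 7 members had an unadjusted limma p below 0.05, a count with no share over all tested genes beside it. None of the 10 genes was called higher without that term (0 also at an unadjusted p below 0.05 and with limma voom). Gap43 and Mapt, also proteins of growing axons, were not called, and the means of their groups lay within 1.08-fold and 1.09-fold of each other. Prph was 1.83-fold lower in mean and missed the threshold, and Nefh was below the filter and was not tested. The call rate over all tested genes was 3.77% in the lower direction, 4.94% in the higher and 8.71% in either direction, against 6 of the 10 members, 9 of which passed the filter. The groups did not overlap for 7 members, all lower in trex, where 8.95% of tested genes were lower without overlap and 12.9% were higher. The median difference of the 9 tested members was -2.13, beside 0.04 over all tested genes. These libraries are of whole tissue, so fewer neurons and less RNA per neuron cannot be told apart. Markers of other cell types also differed: of 10 tested skeletal and heart muscle markers 2 were called lower, the skeletal myosin Myh3 (8.70-fold, limma adjusted p = 0.0110) and the fast troponin Tnnc2 (7.55-fold, limma adjusted p = 0.0154). Trex replicate 1 was the lowest library for both, at 0.0572 and 0.217 TPM, as it was for the 6 called members. The summed muscle list was 243 to 2284 TPM in trex and 393 to 2517 TPM in wt, which overlap. Of 6 endothelial markers 2 were called higher, Cdh5 (limma adjusted p = 0.0126) and Tek (limma adjusted p = 0.0398), and the list summed to 287 to 359.7 TPM in trex and 234 to 268 TPM in wt. The part of these markers in the members' differences was not tested.

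**Figure D1:**
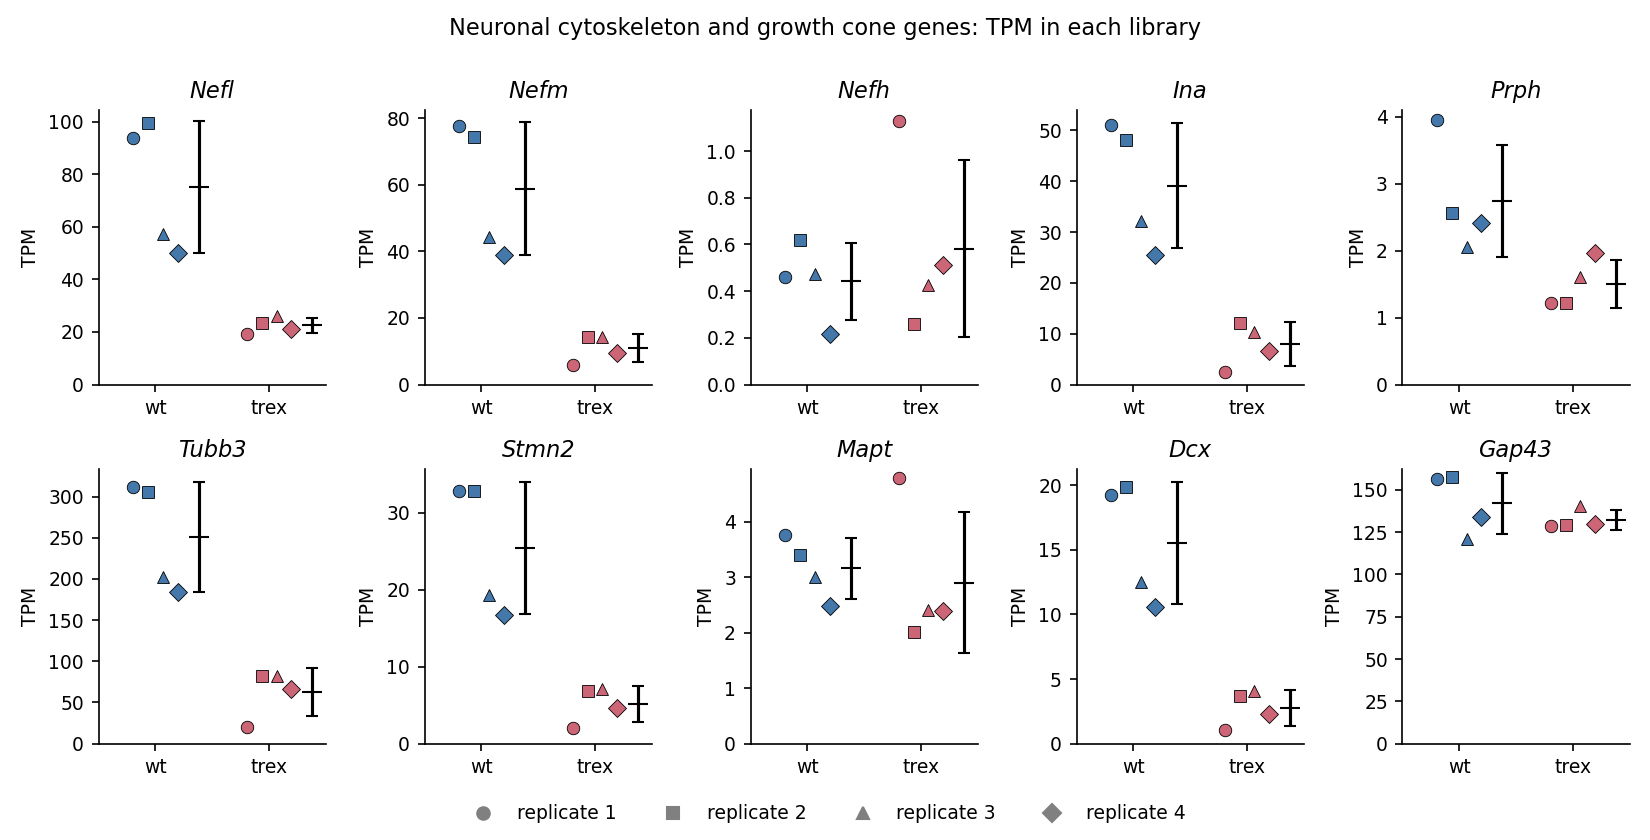
TPM (vertical axis, from 0, with its own scale for each gene) of the 10 genes, 1 panel per gene, in the 4 wt and 4 trex libraries (horizontal axis), 1 symbol per replicate number, with the group mean ± SD beside the points. For Nefl, Nefm, Ina, Tubb3, Stmn2 and Dcx every trex point lies well below every wt point, while the points of Gap43, Mapt and Nefh overlap.

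Promoter sequence is shown for the 4 members that have a RefSeq entry (Tubb3, Prph, Ina and Dcx), since 3 of them fell together and Prph did not pass the test. Each line gives the bases just upstream of the first annotated transcribed base on the gene's own strand, as annotated by RefSeq or GENCODE M21, in the RefSeq sequence of GRCm38.p6, at chr8:123411303-123411423 on the plus strand for Tubb3, chr15:99054924-99055173 on the plus strand for Prph, chr19:47014431-47014680 on the plus strand for Ina and chrX:143933312-143933469 on the minus strand for Dcx. Capitals mark the E-box CAGCTG, the TATA motif TATAAA and the GC box GGGCGG, which on the other strand reads CCGCCC. For Tubb3 and Dcx an annotated transcript begins upstream of the RefSeq start, so their lines stop short of that start and hold only 121 and 158 bases of the 250 searched. A GGGCGG of Tubb3 at 46 bases before the RefSeq start is therefore not shown. Distances below are counted from the RefSeq start, not from the end of the line.
Tubb3: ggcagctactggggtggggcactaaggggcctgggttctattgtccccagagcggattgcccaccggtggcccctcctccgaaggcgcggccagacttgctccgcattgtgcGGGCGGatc
Prph: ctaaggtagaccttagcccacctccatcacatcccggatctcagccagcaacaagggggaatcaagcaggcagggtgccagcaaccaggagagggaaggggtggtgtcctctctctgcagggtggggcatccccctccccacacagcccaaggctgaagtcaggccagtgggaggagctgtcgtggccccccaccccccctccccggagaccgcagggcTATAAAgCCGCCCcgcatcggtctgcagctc
Ina: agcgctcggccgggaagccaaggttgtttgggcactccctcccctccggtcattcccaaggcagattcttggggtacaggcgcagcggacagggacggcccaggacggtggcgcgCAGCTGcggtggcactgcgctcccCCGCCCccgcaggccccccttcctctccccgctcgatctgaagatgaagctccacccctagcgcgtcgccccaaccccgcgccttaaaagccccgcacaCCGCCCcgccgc
Dcx: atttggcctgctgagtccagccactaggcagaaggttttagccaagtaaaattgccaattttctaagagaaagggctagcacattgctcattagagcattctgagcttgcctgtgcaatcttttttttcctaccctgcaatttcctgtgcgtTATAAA
The 4 windows shared no single motif among those searched. TATAAA was found 31 bases before the RefSeq start of Prph and 98 bases before that of Dcx, and it occurs in 12.4% of the 32851 mouse promoter windows of 250 bases. The E-box CAGCTG, a motif bound by proneural basic helix-loop-helix factors, was found in Ina only, 135 bases before the start, and occurs in 13% of windows. A second E-box, CAGATG, was in none of the 4 windows and in 14.4% of all. GGGCGG, present in 32.7% of windows, was found in Tubb3, Prph and Ina but not in Dcx. All 4 motifs were searched on both strands. The GC content of the window was 68.0% in Tubb3, 65.2% in Prph, 70.8% in Ina and 41.6% in Dcx, so 3 of the windows were GC-rich and that of Dcx was not.

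Nefl (ENSMUSG00000022055; mm10 chr14:68083863-68089095, plus strand) encodes the light neurofilament subunit, the core on which neurofilaments assemble. Its level in trex replicates 1 to 4 was 19.2, 23.5, 26.1 and 21.0 TPM, and in wt replicates 1 to 4 it was 93.8, 99.5, 57.2 and 49.997 TPM. The trex libraries were close to each other and all lay below the lowest wt library, whereas the wt libraries fell into a higher pair and a lower pair. The means were 22.5 ± 3.02 and 75.1 ± 25.1 TPM (SD, n = 4 each), 3.34-fold lower in trex, a log2 difference of -1.64 ± 0.22 (SE; limma adjusted p = 0.00751).

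Nefm (ENSMUSG00000022054; chr14:68082590-68124846, minus strand) encodes the medium subunit. Replicates 1 to 4 stood at 5.85, 14.3, 14.3 and 9.43 TPM in trex and at 77.5, 74.3, 44.3 and 39.0 TPM in wt. Here trex replicate 1 was the lowest library, at less than the level of any other, and the same pair of wt replicates was high. The mean fell from 58.8 ± 20.0 to 10.96 ± 4.10 TPM, 5.37-fold, with a log2 difference of -2.33 ± 0.31 (limma adjusted p = 0.00734). Nefl and Nefm lie on opposite strands and share 1108 exonic bases in GENCODE M21, of 3380 and 5782. The library kit marks strand, but the strand setting used in counting is not given in the sources used here, so a part of the reads of each may belong to the other.

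Ina (ENSMUSG00000034336; chr19:47014698-47025327, plus strand) encodes alpha-internexin, an early filament protein of central neurons. Its level was 2.51, 12.2, 10.4 and 6.62 TPM in trex replicates 1 to 4 and 51.0, 48.1, 32.1 and 25.4 TPM in wt. The lowest trex library, replicate 1, had less than the other 3 by a wide margin, and no trex library reached a wt level. The means of 7.93 ± 4.29 and 39.2 ± 12.4 TPM differed 4.94-fold, a log2 difference of -2.28 ± 0.41 (limma adjusted p = 0.0166). This call was lost without wt replicate 1, wt replicate 2 or trex replicate 4, with adjusted p of 0.0505, 0.0663 and 0.0542. Ina shares 456 exonic bases with Nt5c2.

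Prph (ENSMUSG00000023484; chr15:99055174-99058978, plus strand) encodes peripherin, the filament protein of neurons with axons outside the central nervous system. It was at 1.21, 1.22, 1.60 and 1.96 TPM in trex replicates 1 to 4 and at 3.96, 2.56, 2.06 and 2.41 TPM in wt. The groups did not overlap, but only narrowly: the lowest wt library was 1.05 times the highest trex library. With means of 1.499 ± 0.358 and 2.75 ± 0.835 TPM, the log2 difference was -0.57 ± 0.19 and did not pass the threshold (limma adjusted p = 0.0915). Between 14 and 43 reads per library lay behind these values. The exact two-sided permutation test for Prph gave p = 0.0286, the smallest that 4 against 4 libraries allow, and the 6 called members reached the same value.

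Nefh (ENSMUSG00000020396; chr11:4938754-4948064, minus strand) encodes the heavy subunit. It had only 5 to 26 reads per library, at 1.13, 0.261, 0.425 and 0.512 TPM in trex and 0.461, 0.618, 0.472 and 0.215 TPM in wt. The highest value of all was in trex replicate 1, and the groups overlapped. Without the filter, its log2 difference was 0.11 ± 0.17 (limma adjusted p = 0.736), so no difference was detectable at this depth.

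Tubb3 (ENSMUSG00000062380; chr8:123411424-123422015, plus strand) encodes the neuronal beta-tubulin and was the most abundant of the 10 in wt. Its level was 20.1, 82.5, 82.6 and 66.1 TPM in trex replicates 1 to 4 and 312, 306, 202 and 184 TPM in wt. Trex replicate 1 stood far below the other 3 trex libraries, and all 4 were below the wt range. The means of 62.8 ± 29.5 and 251 ± 67.2 TPM differed 3.99-fold, a log2 difference of -2.13 ± 0.43 (limma adjusted p = 0.0236). Of the 6 calls this was the least secure: it was lost without trex replicate 4 or wt replicate 1, 2 or 3, with adjusted p of 0.0626, 0.0662, 0.0848 and 0.0586. Without trex replicate 1 the difference was -1.66 with a smaller standard error of 0.20 (adjusted p = 0.00569).

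Dcx (ENSMUSG00000031285; chrX:143855842-143933311, minus strand) encodes doublecortin, a microtubule-binding protein of migrating and newly formed neurons. It stood at 1.06, 3.68, 4.11 and 2.32 TPM in trex replicates 1 to 4 and at 19.3, 19.9, 12.5 and 10.6 TPM in wt. The ordering of the libraries was the same as for Tubb3 at both ends of the trex group, and no library of one group came near the other. The means were 2.79 ± 1.39 and 15.5 ± 4.72 TPM, a 5.57-fold difference, with a log2 difference of -2.16 ± 0.31 (limma adjusted p = 0.00915). In fold this was the widest difference among the 6 called members. Dcx is X-linked. Wt replicates 1 and 2, which differ in their Y-linked transcripts, had 19.3 and 19.9 TPM. Wt replicates 3 and 4, which also differ in them, had 12.5 and 10.6 TPM. With a term for sex the Dcx call was lost (limma adjusted p = 0.0893).

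Stmn2 (ENSMUSG00000027500; chr3:8509360-8561606, plus strand) encodes the neuronal stathmin that binds tubulin in growth cones. Replicates 1 to 4 were at 2.01, 6.82, 7.07 and 4.65 TPM in trex and at 32.8, 32.8, 19.3 and 16.7 TPM in wt. The same trex library was lowest and the same pair of wt libraries highest. The mean fell 4.95-fold, from 25.4 ± 8.59 to 5.14 ± 2.35 TPM, a log2 difference of -2.15 ± 0.35 (limma adjusted p = 0.0122). Leaving out wt replicate 2 ended the call (adjusted p = 0.0525).

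Mapt (ENSMUSG00000018411; chr11:104231390-104332090, plus strand) encodes tau, which stabilizes axonal microtubules. Its level was 4.79, 2.01, 2.40 and 2.40 TPM in trex and 3.76, 3.40, 3.00 and 2.49 TPM in wt. The group ranges overlapped because of trex replicate 1, the highest of all 8, while the other 3 trex libraries were just below the lowest wt library. The means were 2.90 ± 1.27 and 3.16 ± 0.545 TPM, with a log2 difference of -0.13 ± 0.22 (limma adjusted p = 0.701). Without trex replicate 1 it was -0.34 ± 0.14 and still did not pass (adjusted p = 0.161).

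Gap43 (ENSMUSG00000047261; chr16:42248442-42340651, minus strand) encodes GAP-43, a major protein of the growth cone membrane. It stood at 129, 129, 141 and 130.1 TPM in trex replicates 1 to 4 and at 156, 157, 121 and 134 TPM in wt. Trex replicate 3 was above wt replicates 3 and 4, so the groups overlapped. The means of 132 ± 5.66 and 142 ± 18.0 TPM gave a log2 difference of -0.10 ± 0.09 (limma adjusted p = 0.483). Between 1073 and 1360 reads per library lay behind these values.

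The 6 called members were also set on a common scale, library by library. Relative to its own wt mean, each of them stood at 122% to 132% in wt replicates 1 and 2 and at 65.0% to 82.0% in wt replicates 3 and 4. In trex replicates 2 and 3 they lay between 23.7% and 34.8%, and in replicate 4 between 14.9% and 28.0%. In trex replicate 1 a spread appeared: Nefm, Ina, Tubb3, Stmn2 and Dcx were at 6.4% to 9.9%, and Nefl was at 25.5%. In that same library Gap43 was at 90.7%, Mapt at 151% and Nefh at 256%. Over the 8 libraries the 15 pairs of called members had Pearson r of 0.918 to 0.998 on the log2 scale. With the called members, Prph had r of 0.802 to 0.852, Gap43 0.536 to 0.643 and Mapt -0.137 to 0.257. These are descriptions, since all pairs share the same 8 libraries and the group difference itself.

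**Figure D2:**
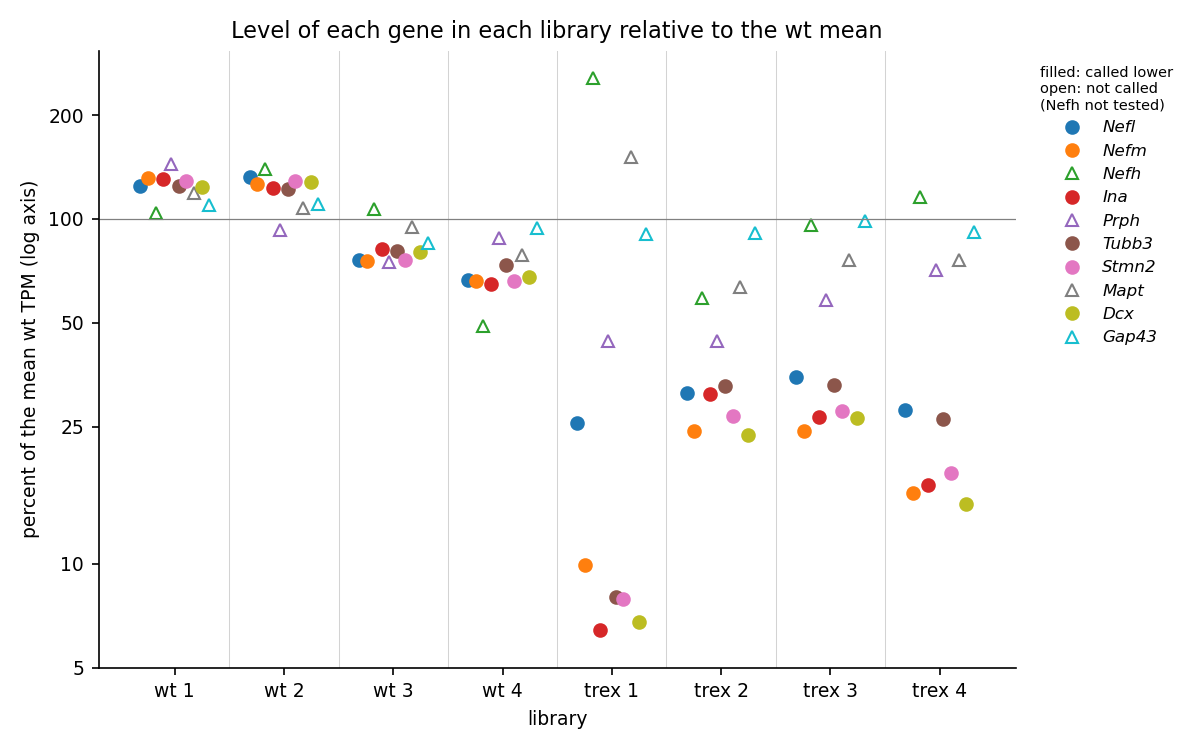
Level of each gene as a percent of its mean wt TPM (vertical axis, a log axis) in each of the 8 libraries (horizontal axis), with filled circles for the 6 genes called lower and open triangles for the others. In trex replicate 1 Nefl at 25.5% stands above the other 5 called genes at 6.4% to 9.9%, and in trex replicate 4 the 6 spread from 14.9% to 28.0%.

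The pair of high wt libraries is also the pair low in liver markers. For the 6 called members the mean of wt replicates 1 and 2 was 1.60 to 1.82 times that of replicates 3 and 4, against 1.57 times for Nefh, 1.46 times for Prph, 1.30 times for Mapt and 1.23 times for Gap43. Set within the libraries low in liver markers (2 against 2, no test), the folds were 4.52 for Nefl, 7.55 for Nefm, 6.74 for Ina, 6.01 for Tubb3, 7.42 for Stmn2 and 8.26 for Dcx. Within the libraries high in liver markers they were 2.27, 3.51, 3.38, 2.60, 3.08 and 3.58 in the same order, so every called member was lower in trex in both classes and by a smaller factor in the second. Prph was 2.68-fold and 1.25-fold lower, and Gap43 was 1.22-fold lower in the first class and slightly higher in the second, with log2 differences of -0.28 and 0.09. With the liver marker class as a term in the fit, all 6 members were called (adjusted p of 0.00779 for Nefl to 0.0355 for Tubb3). Whether the amount of liver in the dissected piece has a part in the wt spread was not tested.

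A term for sex, read from the Y-linked transcripts, ended all 6 calls. In that fit the differences lay between -2.30 and -1.58 with adjusted p of 0.0771 for Nefm to 0.153 for Tubb3, and 7 members had an unadjusted p below 0.05. In all, 39 genes were called. Against only the 2 wt libraries without Y-linked transcripts, replicates 1 and 4, 0 members and 8 genes were called by limma, with adjusted p of 0.128 to 0.256 for these 6 and an unadjusted p below 0.05 for 7 members. Both comparisons leave fewer libraries to estimate the genotype difference. The share of all tested genes at that unadjusted p was not counted, so the 7 members cannot be set against it.

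Ratios within a library set the members against Tubb3. In the 4 wt libraries Nefl was 27.1% to 32.5% of the Tubb3 TPM, Nefm 21.2% to 24.9%, Ina 13.8% to 16.4%, Stmn2 9.09% to 10.7% and Dcx 5.73% to 6.51%. In trex replicates 2 to 4, Nefl was 28.5% to 31.8%, inside the wt range, while Nefm at 14.3% to 17.3%, Stmn2 at 7.04% to 8.56% and Dcx at 3.50% to 4.98% were below theirs. Trex replicate 1 differed: Nefl there was 95.3% of Tubb3 and Nefm 29.0%, whereas Ina, Stmn2 and Dcx at 12.5%, 9.99% and 5.24% stayed near the others. Gap43 was 50.2% to 72.6% of Tubb3 in wt, 157% to 197% in trex replicates 2 to 4 and 640% in replicate 1. In the fit of each gene's difference less that of Tubb3, Nefl (0.48 ± 0.57), Nefm (-0.21 ± 0.58), Ina (-0.15 ± 0.58), Stmn2 (-0.02 ± 0.59) and Dcx (-0.04 ± 0.60) did not pass, with limma adjusted p of 0.402 to 0.975. Prph (1.56), Mapt (1.99) and Gap43 (2.03) passed as higher, with limma adjusted p of 0.0154, 0.00171 and 0.000507. Since 98.4% of the other 15716 tested genes were also higher relative to Tubb3, and 0.00636% were lower, those 3 calls say little about Prph, Mapt or Gap43 themselves. The standard errors carry the spread of Tubb3 in every gene, so the errors are shared by all genes. The fit treats these errors as separate, so its p-values are smaller and its call rates larger than 8 libraries warrant.

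The neuronal intermediate filament genes also differed in proportion. Their summed level was 43.4 ± 10.8 TPM in trex and 176 ± 57.9 TPM in wt. In wt the makeup hardly varied between libraries, with Nefl at 41.4% to 44.2%, Nefm at 32.6% to 34.2%, Ina at 21.4% to 23.6% and Prph at 1.14% to 2.06% of the sum. In trex Nefl took 45.7% to 53.2% in replicates 2 to 4 and 64.2% in replicate 1, and Nefm took 19.6% to 27.7%, so neither overlapped its wt range. Ina took 8.41% in trex replicate 1 and 16.8% to 23.7% in the others, which overlaps wt. Prph took 2.36% to 4.96% in trex, above the wt range. The heavy subunit Nefh was under 4% in every library. No test was run on these shares, which are not independent of each other.

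**Figure D3:**
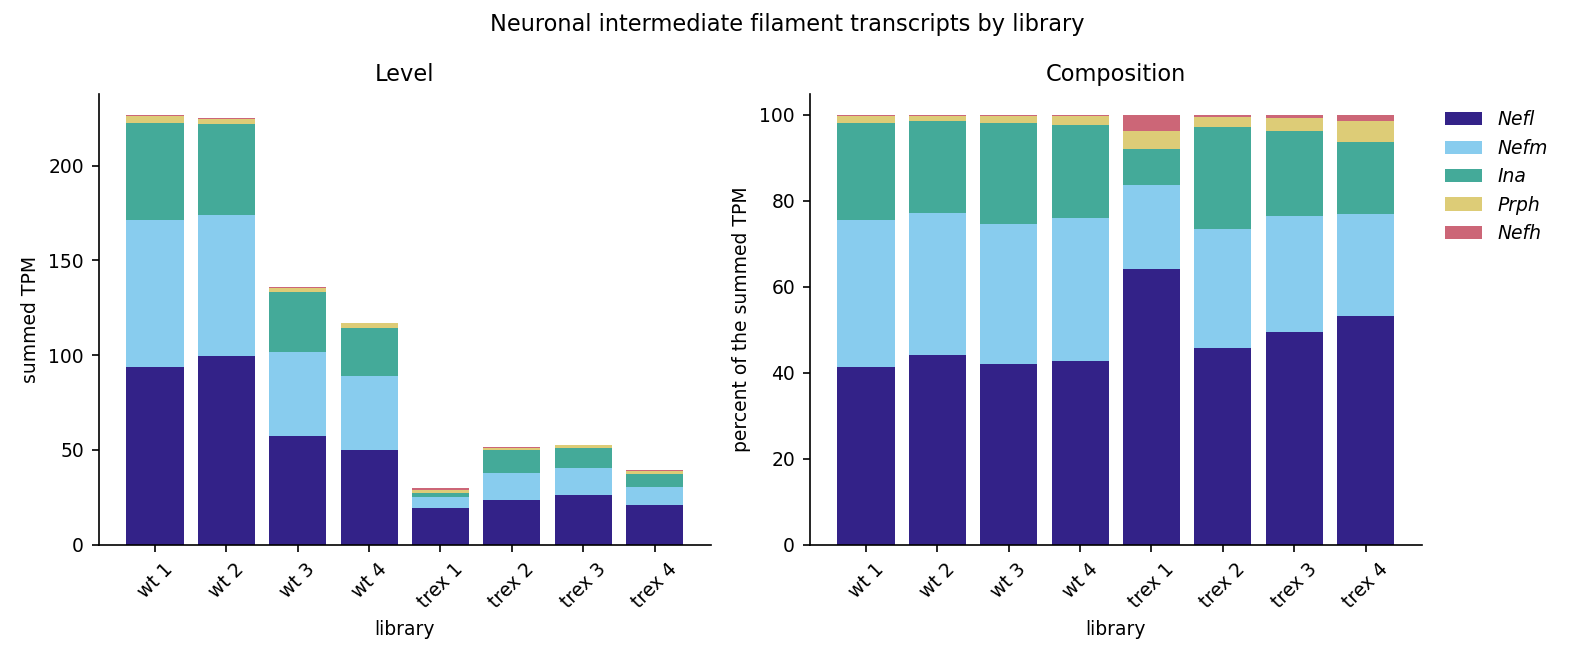
TPM (left panel) and percent of the summed TPM (right panel) of Nefl, Nefm, Ina, Prph and Nefh, stacked for each of the 8 libraries (horizontal axis), both vertical axes from 0. The 4 wt bars on the right are nearly alike, with Nefl at 41.4% to 44.2%, and in trex the Nefl segment is between 45.7% and 64.2%.

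Tubb3 is a small part of all beta-tubulin transcripts at this stage. The summed level of 7 beta-tubulin genes was 5066 ± 105 TPM in trex and 5194 ± 64.6 TPM in wt. Tubb3 made up 0.401% of it in trex replicate 1 and 1.28% to 1.67% in the other trex libraries, against 3.59% to 6.05% in wt. Tubb2b, another neuron-rich isotype, made up 3.47% to 5.27% in trex and 6.98% to 8.60% in wt, and its level fell from 403 ± 44.6 to 235 ± 41.9 TPM (1.71-fold, limma adjusted p = 0.0153). The broadly expressed Tubb5 was the bulk of the sum in both groups, at 80.8% to 86.2% in trex and 73.3% to 77.1% in wt, and its level was not called (adjusted p = 0.370). Tubulin genes have near-identical copies, so the split of reads among them is uncertain.

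The order of levels in wt was Tubb3, Gap43, Nefl, Nefm, Ina, Stmn2, Dcx, Mapt, Prph and Nefh. Neighbours whose wt ranges overlapped were Nefl with Nefm, Nefm with Ina, Ina with Stmn2, Stmn2 with Dcx, and Mapt with Prph. In trex Gap43, at 129 to 141 TPM, stood first in every library, above Tubb3 at 20.1 to 82.6 TPM, so the order of these 2 genes was reversed between the groups.

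Other genes of the same machinery were taken from lists, each read against the call rates above, 3.77% lower and 4.94% higher. The calls of these and the following lists come from the fit without a term for sex. With that term, limma called only 30 of all tested genes lower and 9 higher. Of 24 other neuronal tubulins, microtubule-associated proteins and kinesins, 12 were called lower (limma; median difference -0.64). Stmn3, a stathmin relative of Stmn2, fell from 48.3 ± 15.1 to 10.9 ± 3.97 TPM (adjusted p = 0.00867), and Stmn4 from 14.0 ± 3.63 to 3.56 ± 1.12 TPM (adjusted p = 0.00612). Map2, the dendritic microtubule-associated protein, fell 2.00-fold (adjusted p = 0.0169). Tuba1a and Map1b did not pass, at adjusted p of 0.0688 and 0.0795. Of 17 other growth cone and axon surface genes, 4 were lower and 2 higher. Cntn2, an adhesion protein of early commissural and sensory axons, fell 6.66-fold (15.2 ± 4.90 to 2.28 ± 1.38 TPM, adjusted p = 0.0113), while Chl1, an adhesion protein of the L1 family, rose 3.45-fold (adjusted p = 0.00930). Basp1, a growth cone membrane protein related in function to GAP-43, was not called, with 378 ± 35.8 TPM in trex and 385 ± 24.3 TPM in wt.

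Broadly expressed and non-neuronal relatives were set beside the 3.77% of all tested genes called lower and the 4.94% called higher. Of 10 broadly expressed tubulins, stathmin and actins, 1 was called lower, Stmn1 (55.4 ± 1.37 against 63.8 ± 1.52 TPM, adjusted p = 0.0268). Of 12 non-neuronal and progenitor intermediate filaments, 11 were tested, 1 was lower and 3 were higher. The lower one was Nes, the filament of neural progenitors (1.68-fold, adjusted p = 0.0205). The epithelial keratins Krt8 and Krt19 were among the higher, Krt19 by 5.12-fold in mean (limma adjusted p = 0.0332). Krt19 varied widely in trex, at 172, 29.6, 58.1 and 102 TPM in replicates 1 to 4, against 14.6 to 21.7 TPM in wt. Vim was not called (adjusted p = 0.0880).

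**Figure D4:**
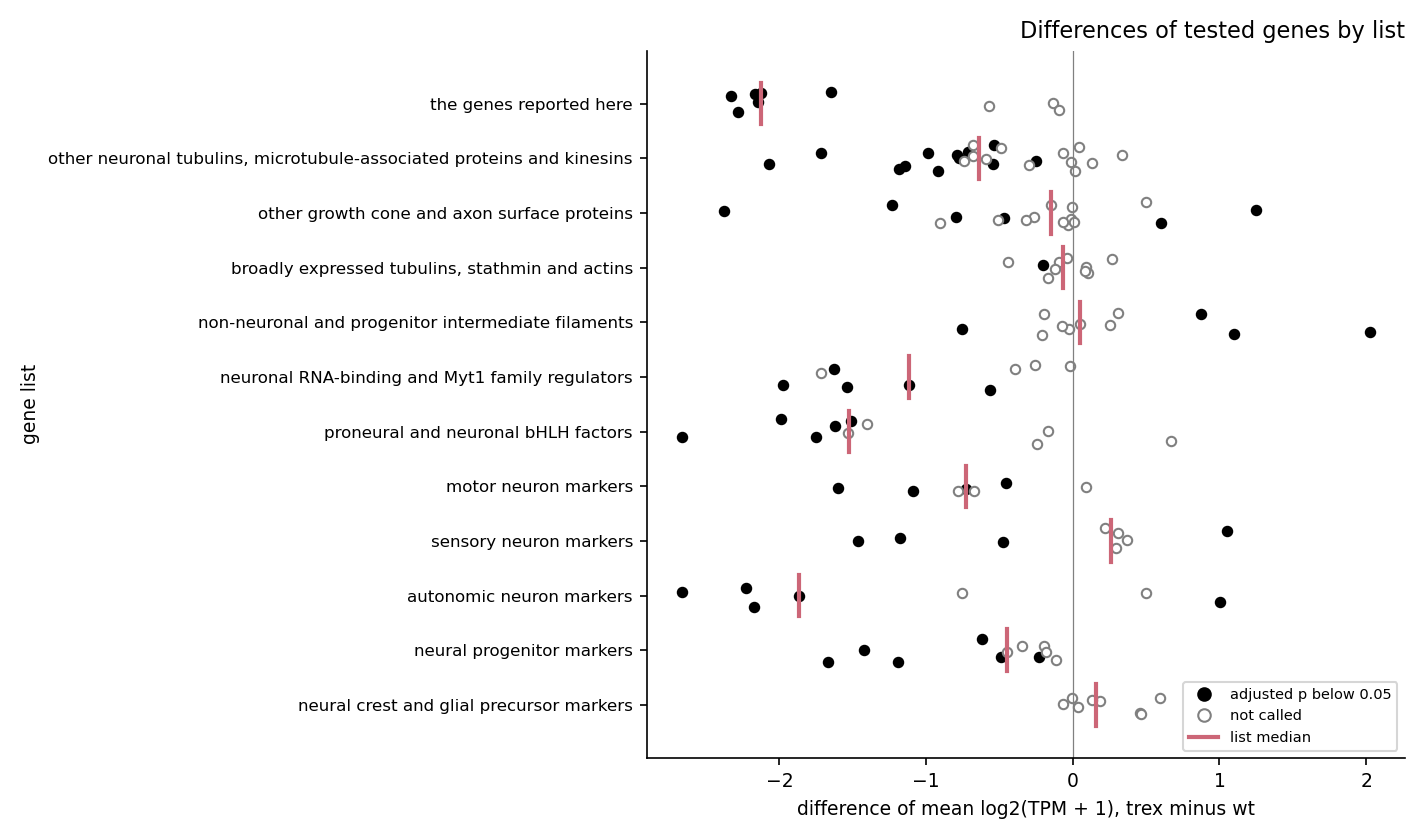
Difference of mean log2(TPM + 1), trex minus wt (horizontal axis), for each tested gene of the 10 described here and of the other lists (vertical axis), filled where called, with the list median as a bar. The median of the 10 genes' list is -2.13, that of the other neuronal microtubule genes -0.64 and that of the broadly expressed tubulins, stathmin and actins -0.06.

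Regulators of neuronal genes and markers of neuron types were read in the same way. Of the proneural and neuronal bHLH factors, 5 of 10 tested were lower, among them Neurog1, which specifies sensory neuron precursors (3.22-fold, limma adjusted p = 0.00820), and Neurod1 (4.00-fold, adjusted p = 0.00942). Of the neuronal RNA-binding and Myt1 family genes, 5 of 9 tested were lower, including Elavl3 (3.82-fold, adjusted p = 0.0332) and Elavl4 (2.16-fold, adjusted p = 0.0308). Of 9 tested genes for REST and its co-repressors, 0 were called lower and 1 higher, with a median difference of 0.05. The higher one was Rest, the repressor of neuronal genes in other cells. It was 66.5 ± 7.35 TPM in trex and 52.6 ± 0.644 TPM in wt (1.26-fold higher, limma adjusted p = 0.0320). Trex replicate 1 had 77.4 TPM of Rest and the other trex libraries 61.8 to 64.5 TPM. Lower calls covered 4 of 7 tested motor neuron markers, 3 of 8 sensory, 4 of 7 autonomic and 6 of 11 neural progenitor markers. Higher calls covered 1 sensory and 1 autonomic marker. Of the 8 neural crest and glial precursor markers, Sox10 was not called (trex mean 50.1 ± 11.8 TPM, wt mean 35.4 ± 1.25 TPM, limma adjusted p = 0.0732). Of these 8 markers 0 were called by limma or by voom. Without overlap, 4 were higher in trex, beside 12.9% of all tested genes. At an unadjusted limma p below 0.05, 4 were also higher, and the share of all tested genes at that p was not counted. That list summed to 204 to 289 TPM in trex and 190.03 to 204 TPM in wt. The summed TPM of the lists in trex and wt was 61.6 to 96.5 and 89.8 to 107 for motor neurons, 97.8 to 160.2 and 126 to 156 for sensory neurons, 73.8 to 116 and 100.4 to 113 for autonomic neurons, and 603 to 745 and 850.2 to 1112 for progenitors. Progenitor markers as a sum thus lay lower in trex without overlap, and the motor neuron, sensory and autonomic sums overlapped. Of all these markers Neurod6 was listed at 0 in every library. Their part in the members' differences was not tested.

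The 8 other genes whose pattern over the 8 libraries was most like the mean profile of the 9 tested members were Lhx5, Rgs12, Add2, Cdc25b, Map6, Rtl5, Srrm3 and Mapk8ip2, with Pearson r of 0.994 for Lhx5 to 0.984 for Mapk8ip2. Lhx5, a transcription factor of interneuron precursors, was at 0.0645 to 0.631 TPM in trex and 1.79 to 5.13 TPM in wt. It had the same high wt pair and the same lowest trex library as the called members, which follows from how it was chosen. Its lowest library had only 1 read.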

How the data were processed

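Poly-A RNA of 8 libraries was sequenced from TruSeq Stranded mRNA libraries, per the labels' protocols. The authors deposited TPM per gene, with reads processed by CASAVA 1.8.2 and STAR on mm10, per the submitters' processing notes. The sources used here do not give the counter, its strand setting or the annotation. Of 55421 gene IDs, 55240 matched GENCODE M21, which gave exonic lengths and coordinates. TPM times length gave read numbers that were whole (within 0.001 read, for values below 200 reads) for 98.7% to 98.9% of low values.

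The log2(TPM + 1) of genes with a mean of at least 1 TPM was fitted by genotype with limma 3.58.1 in R 4.3.3 (empirical Bayes with a mean-variance trend, Benjamini-Hochberg adjustment over all tested genes), which was tested on simulated data. Single genes were also given an exact permutation test over samples. Groups came from the labels. Replicates 1 to 4 stand here for the libraries titled trex_1 to trex_4 in trex and wt_5 to wt_8 in wt. Alternatives were other pseudocounts, filters, scalings and settings, voom on recovered reads, sex, replicate or liver marker class as a term, and leaving out each library.

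The 10 members and the lists were chosen with earlier results of these data known. All members were named, with, from each list, the 3 tested genes of smallest p, a set given whatever its result (Tubb2b, Tubb5, Tuba1a, Map1b, Map2, Vim, Nes, Basp1, Stmn1, Elavl3, Elavl4, Rest, Sox2, Isl1, Pou4f1, Rdh10 and others not reported here), and the 8 other genes most like the members' mean standardized profile; not all of them are described. The limit of 2.5 on the liver marker mean was set after seeing the data. Motifs were searched in the 250 bases before each RefSeq start. No protein sequences were used here.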

Additional observations from a re-analysis of the deposited data

Results flagged for a closer look

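In each group of 4 libraries, a value was singled out when its gap to the nearest of the others was above the 95% critical value of Dixon's test relative to the group's range, which chance alone exceeds in about 1 of 20 sets. This held for 15 of 230 sets of values, and 8 of the 15 were trex replicate 1.

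Among the members, Mapt was 4.79 TPM in trex replicate 1 against 2.01 to 2.40 in the other trex libraries, and Gap43 was 141 TPM in trex replicate 3 against 129 to 130.1. Relative to Tubb3, trex replicate 1 stood apart for Nefl (95.3% against 28.5% to 31.8%), Nefh (5.604% against 0.316% to 0.774%), Mapt (23.8% against 2.43% to 3.63%) and Gap43 (640% against 157% to 197%). These 4 ratios share the low Tubb3 level of that library. Tubb5 was 86.2% of the beta-tubulin sum there, against 80.8% to 81.4%.

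Among other genes, trex replicate 1 was high for Rdh10 (106 against 62.7 to 69.0 TPM) and for Tfap2a, a neural crest factor (29.8 against 15.1 to 16.8 TPM). In wt replicate 1 Tfap2a was 14.3 TPM against 10.97 to 11.4, and the summed level of the neural crest and glial precursor markers was 204 TPM against 190.03 to 192. In trex replicate 3 Stmn4 was 5.22 TPM against 2.76 to 3.17, and Cdc25b was 81.1 TPM against 78.4 to 78.8. The liver gene Apob was 13.02 TPM in trex replicate 4 against 0.311 to 1.99, and the progenitor factor Sox3 was 71.5 TPM in wt replicate 4 against 89.9 to 93.4.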

How the results depend on the processing

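Every tested member kept the direction of its difference under all alternatives that gave it a value, except Gap43 within the libraries high in liver markers (0.09). The number of members called lower was 6 and became 0 with sex as a term and 0 with only the libraries low in Y-linked transcripts; leaving out 1 library gave 3 to 6, the lowest without wt replicate 2. The all-gene count of 1369 became 694 without a filter, 5524 with array weights, 39 with sex as a term and 8 with only the libraries low in Y-linked transcripts. Leaving out 1 library moved it from 201 (without wt replicate 2) to 2911 (without trex replicate 2), and the cause was not tested. Relative to Tubb3, 3 members were called, and 2 to 3 when 1 library was left out, by p-values that are too small as said above. Of those differences, 4 changed sign with a pseudocount of 5: Nefm 0.051, Ina 0.24, Stmn2 0.46 and Dcx 0.65. With only the libraries low in Y-linked transcripts, Stmn2 was 0.0038 and Dcx 0.0032, and with 1 library left out Stmn2 ranged from -0.18 to 0.074 and Dcx from -0.24 to 0.085. The library titles share no number between the groups, so a pairing by replicate number rests on the numbering used here. Replicate numbers did not pair the samples: the deviations of same-numbered libraries had correlations of 0.162, -0.0225, -0.00449 and 0.252, and trex replicate 2 correlated best with wt replicate 1. With the replicate block, 687 genes were called and 5 members lower, Tubb3 having an adjusted p of 0.0514 (limma). Prph was called only with array weights (limma adjusted p = 0.0371). Dcx was left out where sex chromosome genes were removed. Depth limits Nefh, with 5 to 26 reads per library, and Prph, with 14 to 43.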

Other observations

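Neuron type markers did not all move with the called members, and trex replicate 1, the lowest library for Tubb3, Ina, Nefm, Stmn2 and Dcx, was high for several of them. Ntrk2, the receptor for BDNF in sensory neurons, was 2.60-fold higher in trex (limma adjusted p = 0.0328). The acetylcholine receptor subunits Chrna3 and Chrnb4 were 11.5-fold and 6.91-fold lower (limma adjusted p = 0.000599 and 0.00107). Of 7 tested motor neuron markers 4 were called lower and 0 higher. Among them Slc18a3 was 4.95-fold lower (limma adjusted p = 0.00751), on 5 to 82 reads per library. Isl2 was 1.75-fold lower (limma adjusted p = 0.0308) and Isl1 1.39-fold lower (limma adjusted p = 0.0276). Pou4f1 was not called (limma adjusted p = 0.237).

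Some genes were singled out after their values were seen. Kif1a, an axonal transport motor, was 23.4 TPM in trex replicate 1 and 8.26 to 11.6 TPM in the other 7 libraries. P2rx3, a sensory neuron channel, was 13.7 TPM there and 4.13 to 7.32 TPM elsewhere. Mapt and Nefh were also highest in that library, at 4.79 and 1.13 TPM. Actg1, a cytoplasmic actin, was listed at 4.92 to 9.29 TPM where Actb was at 2523 to 2982 TPM.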
